A study of Mus musculus with 12 samples.

Results

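The genes described here encode the subunits of oxidative phosphorylation, the machinery of the inner mitochondrial membrane that turns the energy of electrons into ATP. They were taken from a gene count table of sorted mouse bone marrow PreMegE cells by name. A nuclear gene was included when it was annotated as protein coding and its symbol began with Nduf (followed by a, b, c, s or v and a number), Uqcr, Cox4 to Cox8 or Atp5, or was Sdha, Sdhb, Sdhc or Sdhd. A mitochondrial gene was included when its symbol began with mt-Nd, mt-Co, mt-Cytb or mt-Atp. The rule found 97 of the 41128 genes in the table, 84 in the nuclear genome and 13 in the mitochondrial genome. By complex, counting nuclear and then mitochondrial genes, 35 and 7 belonged to complex I, 4 and 0 to complex II, 8 and 1 to complex III, 20 and 3 to complex IV, and 15 and 2 to complex V. Atp5s and Atp5sl match the rule by name but are not counted among the subunits of any complex here.

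PreMegE cells are progenitors that can give rise to megakaryocytes and red cells. In each library, RNA came from the pooled marrow of 3 male or female mice of the C57BL/6 background, 12 to 16 weeks old, and the cells were sorted as Lin- cKit+ Sca1- CD16/32- CD41- Endoglin- CD150+. There were 4 groups of 3 libraries. WT mice carried unmodified Runx1, a transcription factor gene with a distal promoter, P1, and a proximal promoter, P2. The P2- and P2+ groups were P1-expressing PreMegE cells from mice heterozygous for a Runx1 allele in which P1 drives GFP and P2 drives a truncated human CD4, and were separated by the absence or presence of hCD4 on the cell surface. KO mice lacked RUNX1C, the protein made from P1, because both alleles carried GFP in its place. The comparison of P2+ with P2- asks how PreMegE cells that use the proximal promoter differ from those that do not. The comparisons with WT set each reporter fraction, and the loss of RUNX1C, against the unfractionated population. The reporter fractions differ from WT in Runx1 genotype as well as in fraction, and genotype and fraction cannot be told apart there.

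Complexes I and II pass electrons from NADH and succinate to ubiquinone, complex III passes them on to cytochrome c, and complex IV passes them to oxygen. Complexes I, III and IV pump protons as they do so, and complex V, the ATP synthase, uses the returning protons to make ATP. The subunits of 4 of the 5 complexes are encoded partly in the nucleus and partly in mitochondrial DNA, while complex II is encoded by nuclear genes alone. Most of the nuclear subunits are needed in every nucleated cell, but several subunits of complex IV exist as isoforms with restricted tissue distribution.

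The libraries held 10726098 to 14445026 counted reads, of which 2.07% to 3.14% were on the 97 genes and 7.49% to 8.74% on genes annotated as pseudogenes. The PreMegE markers Kit, Slamf1, Gata1, Gata2, Zfpm1, Tal1 and Gfi1b were detected in all groups. Levels are given as CPM, the count divided by the library total on a scale common to all libraries. Runx1 itself was at 613 to 659 CPM in P2+, 203 to 216 in P2-, 357 to 387 in WT and 341 to 381 in KO. The counts cover transcripts of both promoters, so they do not test the removal of RUNX1C. Erythroid markers summed to 6026 to 6857 CPM in P2-, 5765 to 6490 in KO, 3376 to 3899 in WT and 1312 to 1558 in P2+. Megakaryocyte markers summed to 1134 to 1709 CPM in P2+, 731 to 856 in WT, 498 to 550 in KO and 202 to 279 in P2-. Immediate early genes, which respond to stress and handling within minutes, summed to 13139 CPM in P2- replicate 2 and 8857 in P2+ replicate 2, and to at most 1243 in each of the other libraries, so the calls of P2+ against P2- that are lost without that pair are named below. In a bulk library, fewer cells of one type cannot be told apart from less RNA of a gene in each cell.

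Where the reads of these genes were counted has to be described before their levels, because many of them have near-identical copies elsewhere in the genome. The 13 mitochondrial genes split into 7 with counts and 6 with none. mt-Co2, mt-Atp8, mt-Atp6, mt-Co3, mt-Nd3 and mt-Nd4l were listed at 0 in all 12 libraries, so the part of complex V that mitochondrial DNA encodes was not measured. These genes follow one another in this order on the mitochondrial genome. In 5 of the 6, between 97.8% and 99.9% of the 75-base windows of the gene, the length of a sequenced read, had an identical match in pseudogenes annotated on chromosome 1, copies of mitochondrial DNA in the nuclear genome. In mt-Atp8 the share was 0%, but only annotated transcripts were searched, so a copy outside them would be missed. A 60-base stretch of mt-Co2 at chrM:7325-7384 (GRCm38, plus strand) is printed with its counterpart in the pseudogene Gm28661 at chr1:24615194-24615253 (minus strand), to show that these 60 bases do not tell both places apart.
mt-Co2: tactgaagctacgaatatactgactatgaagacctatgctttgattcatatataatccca
Gm28661: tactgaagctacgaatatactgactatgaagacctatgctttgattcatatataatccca
The shared part was 61.5% of mt-Nd4 and 39.8% of mt-Co1, both of which did have counts. It was 0% in mt-Nd1 and mt-Nd6. The copies on chromosome 1 held almost no counts either: Gm28661 had 0 to 2 a library, and the copies of mt-Atp6, mt-Co3, mt-Nd3 and mt-Nd4l had 0 in all 12. The reads of these genes are thus in neither place in the table. Bowtie2 was run with its default settings per the study's methods, and how featureCounts treated reads with several equally good alignments is not given in the sources used here.

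**Figure D1:**
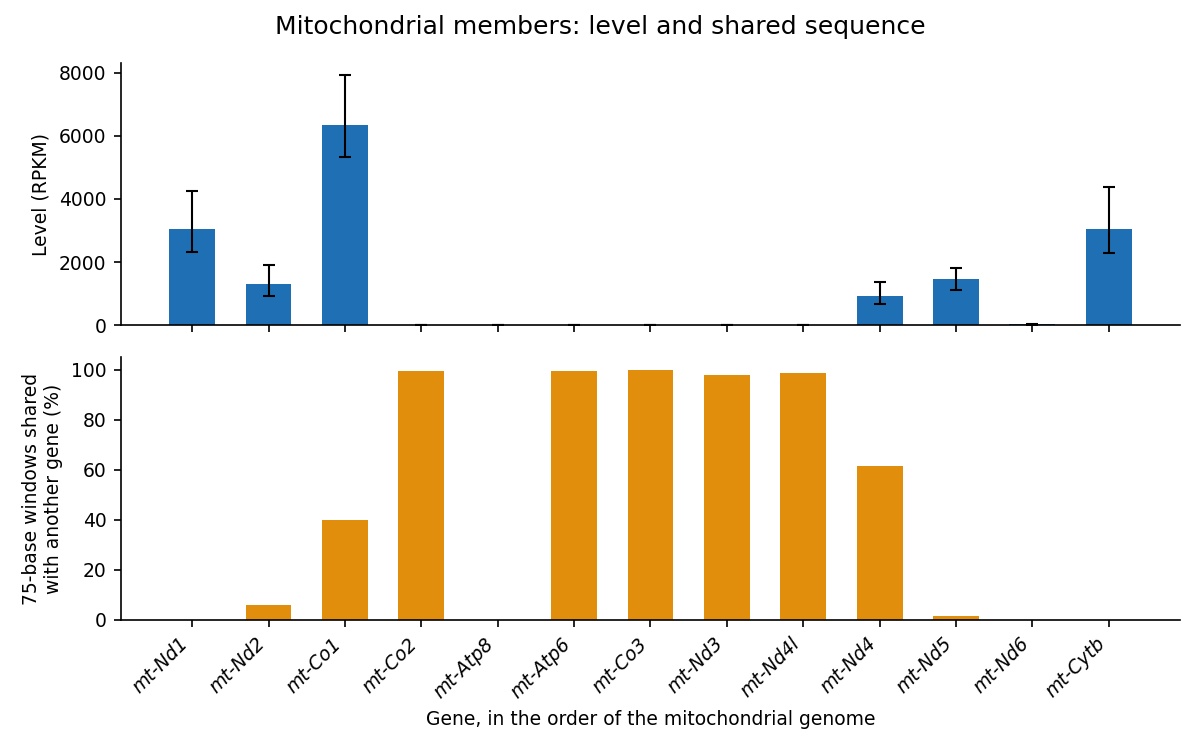
Mean level (RPKM, reads per kilobase of exon and library size, upper panel; lines from the lowest to the highest of the 12 libraries) and share of 75-base windows identical to another gene (percent, lower panel) of the 13 mitochondrial members in genome order. The 6 genes at 0 form one block, and 5 of them have shares of 97.8% to 99.9%.

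Many nuclear members also have processed copies that held counts. Such a copy, or retrocopy, is a spliced transcript that was written back into the genome, so it holds the exons joined and no introns. Across the nuclear members, 26 annotated single-exon genes or processed pseudogenes that share read-length sequence with 19 members were found, and in 16 of the 19 the copies held more counts than the gene itself. In 11 of them the copies held over 5 times as many. For Atp5f1, subunit b of the ATP synthase stalk, 208 to 295 counts were on the gene in each library and 3041 to 4184 on its copy Gm12231, which is 14.1 times as many over all libraries. For Cox5b, a nuclear subunit of complex IV, the copy Gm11273 held 30.7 times the counts of the gene. The ratio was 23.3 for Atp5o and Gm5436, and 19.1 for Atp5h and Gm10250. The stretch below crosses the junction of exons 5 and 6 of Atp5f1 (GRCm38, minus strand, chr3:105954018-105954047 joined to chr3:105951687-105951716 over an intron of 2301 bases) and is found without a break in Gm12231 at chr11:55118455-55118514. The 4 bases on either side of the junction are in capitals.
Atp5f1 exons 5 and 6: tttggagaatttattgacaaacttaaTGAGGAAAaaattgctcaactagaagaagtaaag
Gm12231: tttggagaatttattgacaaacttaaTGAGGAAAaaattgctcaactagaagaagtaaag
The deposited counts were made with Bowtie2, which does not split a read over an intron, so a read over this junction can align in one piece to the copy and not to the gene. Whether the copies are also transcribed was not tested. Which locus the reads on the copies came from was not tested either. Calls, leading genes and shares below that change when gene and copies are added together are given both ways.

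**Figure D2:**
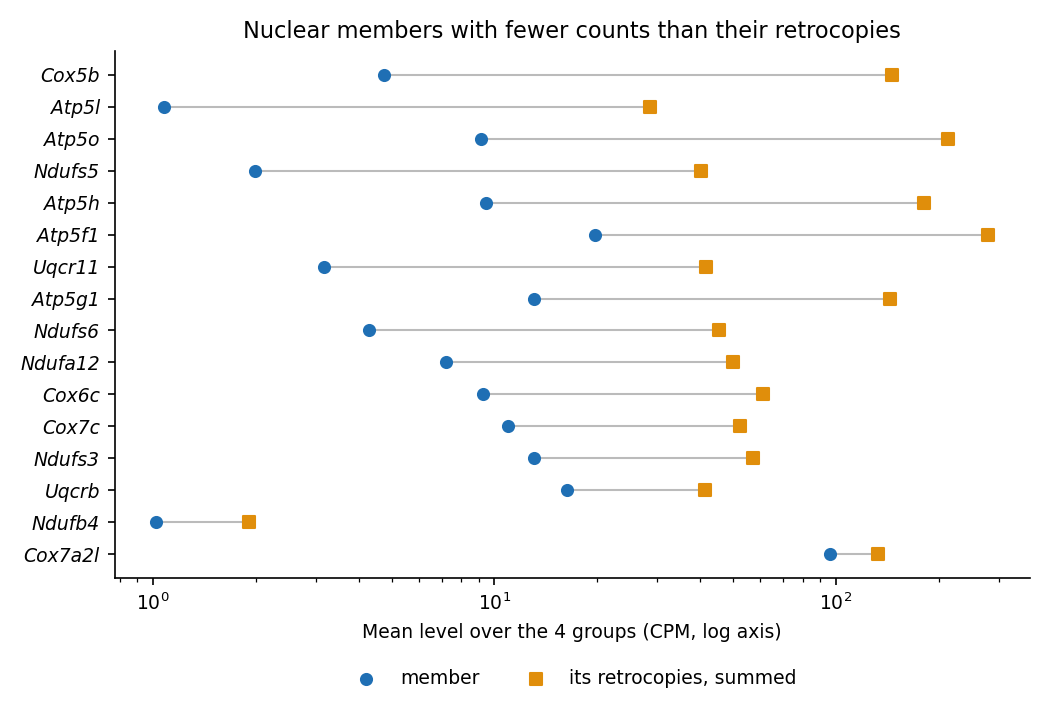
Mean CPM over the 4 groups (log axis) of the 16 nuclear members with more counts on their retrocopies than on the gene, circles for the gene and squares for its copies summed. The distance is widest for Cox5b, with 30.7 times as many counts on the copy, and narrowest for Cox7a2l, with 1.38 times.

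Within each complex the subunits differed widely in level, compared here as RPKM, the CPM divided by the exonic length in kilobases, and as means over the 12 libraries, first without and then with the retrocopies. In complex I, Ndufb11, a small membrane-arm subunit, was the most abundant at 84.5 RPKM, followed by Ndufa1 at 49.6 RPKM. In complex II, Sdhd, 1 of the membrane anchors, reached 149.7 RPKM, while Sdha, the flavoprotein that oxidises succinate, was at 42.5, Sdhc, the other anchor, at 36.7 and Sdhb, the iron-sulfur subunit, at 4.30 RPKM. These 4 subunits are present in equal numbers in the complex, but their RNA levels per length were not equal. In complex III, Uqcrfs1, the Rieske iron-sulfur protein, led at 91.3 RPKM. Cox8a led the nuclear subunits of complex IV at 112 RPKM. In complex V the alpha and beta subunits of the catalytic head, Atp5a1 and Atp5b, were at 149 and 136 RPKM, and their spread over libraries overlapped. Of the mitochondrial genes with counts, mt-Co1, the catalytic core of complex IV, was highest at 6341 RPKM. It was followed by mt-Cytb of complex III at 3036 and mt-Nd1 at 3035 RPKM, while mt-Nd5, mt-Nd2 and mt-Nd4 lay at 1467, 1301 and 922 RPKM. mt-Nd6, the only one of them on the opposite strand, was at 25.3 RPKM. It shares exonic bases with mt-Nd5 on the other strand, and whether the counting used strand is not given in the sources used here.

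With the counts of the retrocopies added to their genes, over the same exonic length, several of these orders changed. In complex IV, Cox7a2l with Gm6969 then led at 155 RPKM, ahead of Cox8a at 112. In complex I, Ndufb11 still led, at 133 RPKM, and Ndufs6 with Ndufs6b came next at 55.4. The leading genes of complexes II, III and V stayed Sdhd, Uqcrfs1 and Atp5a1.

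The members with retrocopies had a median of 4.79 RPKM over 19 genes, against 10.3 RPKM over the other 57 nuclear members, leaving out the 8 isoforms of restricted tissue distribution described next. With the copies added, the median of the 19 was 55.4 RPKM. Across these 76 genes the level in CPM had a Spearman correlation of 0.29 with the length of the longest transcript, and the level in RPKM one of -0.14. Genes are not independent replicates, so these are descriptions of the table.

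Except for Cox6b2, the isoforms of restricted tissue distribution were nearly silent. Cox4i2, Cox7a1, Cox7b2, Cox8b, Cox8c and Ndufa4l2 had 3 counts or fewer in every library, which is the limit that a count of 0 allows (0.208 to 0.280 CPM, counting error only). Cox6a2, the heart and skeletal muscle form of subunit 6a, averaged under 1 CPM, and so did Atp5k, a general subunit of complex V. Of the Cox6b pair, however, Cox6b2, a form described mainly in testis, was the more abundant per exonic length in 3 of the 4 groups. Its share of the summed per-length level of Cox6b1 and Cox6b2 was 64.4% ± 10.4 (SD, n = 3) in WT, 70.6% ± 6.64 in P2- and 75.5% ± 4.23 in KO, but 46.3% ± 4.77 in P2+. The order in P2+ turned with the length used: per length of the longest transcript, the share of Cox6b2 was 58.7% ± 4.66 there, and still the lowest of the 4 groups, the others being 74.7% to 83.5%. Of the 3 genes for the c subunit of the ATP synthase ring, which encode the same mature protein, Atp5g3 made up 68.1% to 70.9% of the summed per-length level in the group means, with Atp5g1 at 13.6% to 16.5% and Atp5g2 at 13.3% to 16.9%. The copy Gm10039 held 11.1 times the counts of Atp5g1. With the copies added the order turned, and Atp5g1 made up 65.1% to 70.7%, Atp5g3 23.4% to 27.6% and Atp5g2 5.47% to 7.26%, so these data do not fix which of the 3 genes was the most abundant.

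Between P2+ and P2- cells, most nuclear members did not pass the test, and those that did were nearly all lower in P2+, with members from each of the 5 complexes. Of 75 nuclear members tested, 21 were lower in P2+, or 28%, and 1 was higher, against 17% lower and 20.1% higher among all 12836 genes tested (edgeR quasi-likelihood test with Benjamini-Hochberg adjustment over all genes, adjusted p under 0.05, 3 libraries a group, no minimum fold). At an unadjusted p under 0.05 there were 32 lower and 1 higher, or 44% against 46.2% of all genes. The fold changes were small, with a median of -0.31 on the log2 scale over the 75 members and -0.02 over all genes. Below 0 lay 66 of the 75 members, or 88%, against 51.7% of all genes. The 9 members not tested were Atp5k, Ndufb4, Cox6a2 and the 6 genes with 3 counts or fewer named above, which did not reach 1 CPM in 3 of the 6 libraries. Only Cox6b2 differed by more than 2-fold. The p-values measure the spread between 3 pooled libraries a group.

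The sum over the 84 nuclear members was 3707, 3615 and 3524 CPM in the P2- libraries, 2915, 2989 and 2922 in P2+, 3131, 3071 and 3444 in WT and 3352, 3393 and 3409.9 in KO. P2- was thus highest and P2+ lowest, no P2+ library reached the lowest library of another group, and the P2+ mean was 18.6% below that of P2-. The sums of P2- did not overlap those of WT or KO, while KO lay within the range of WT. By complex the P2+ mean was below the P2- mean by 15.4% for complex I, 25.3% for complex II, 21.2% for complex III, 18.0% for complex IV and 17.6% for complex V, and in each complex every P2+ library lay below every P2- library. With the retrocopies added, the sum was 17.9% lower. Erythroid markers moved in the same direction, 11 of 14 tested being lower in P2+ and 0 higher, against 17% lower and 20.1% higher among all genes. Markers of megakaryocytes (11 of 13), stem cells (8 of 10), neutrophils and monocytes (9 of 13) and lymphoid cells (6 of 8) were higher in P2+, with 0 lower. Of 5 mast cell and basophil markers tested, 4 were higher and 1 lower, but their sum was 183 to 310 CPM in P2+ and 375 to 425 in P2-. Stem cell markers summed to 2213 to 2450 CPM in P2+ and 480.0 to 563 in P2-, and neutrophil and monocyte markers to 343 to 504 and 70.3 to 126. The part of these markers in the difference was not tested.

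**Figure D3:**
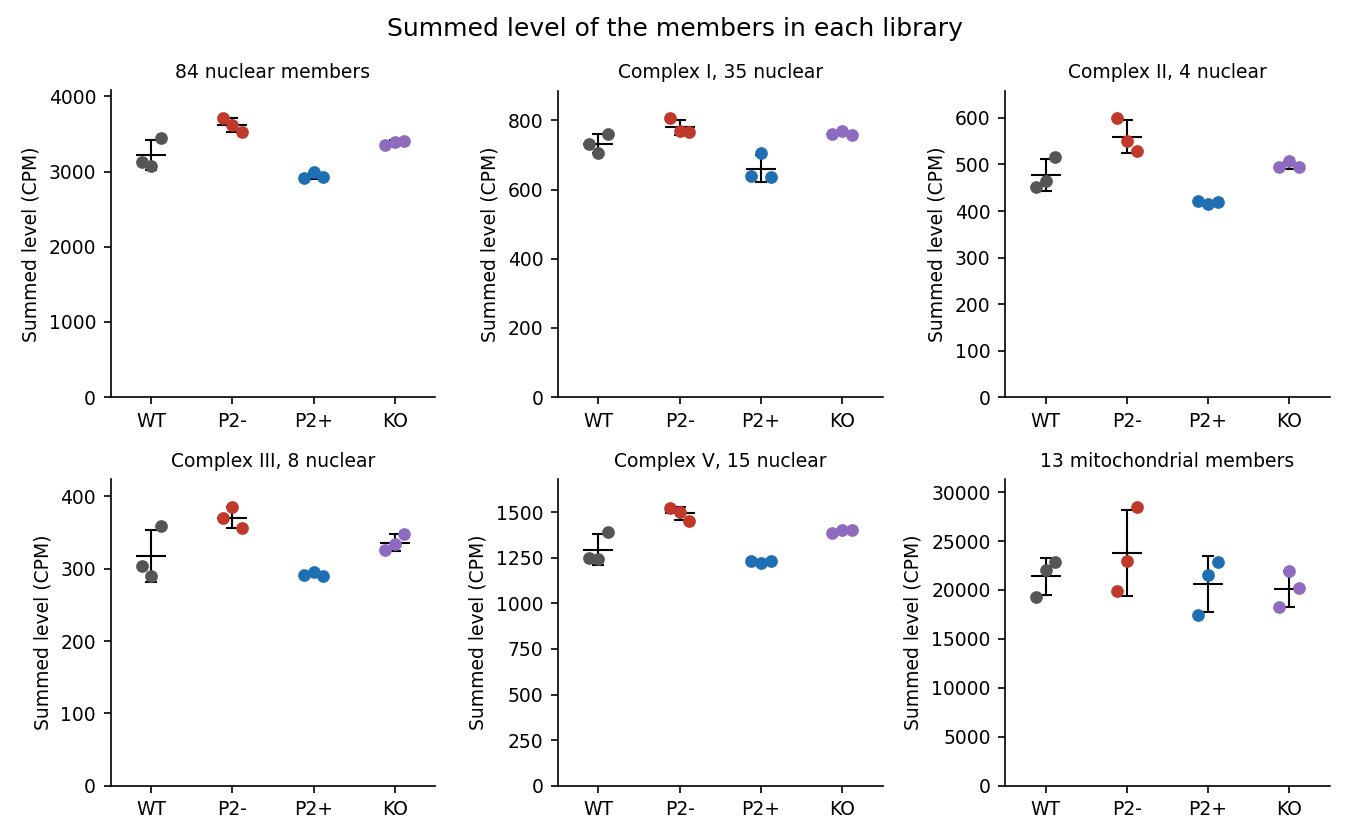
Summed CPM of the nuclear members, of those of complexes I, II, III and V, and of the mitochondrial members in each of the 12 libraries (points), with the mean and SD of each group of 3. In each nuclear panel the 3 P2+ points lie below the 3 P2- points, and in the mitochondrial panel the groups overlap.

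The 10 members with the most negative fold changes among those called lower in P2+ were Cox6b2, Ndufa2, Ndufs6, Cox7b, Atp5h, Sdhd, Ndufa1, Uqcr10, Ndufs7 and Uqcrh. They come from all 5 complexes. The other 11 were Ndufv2, Atp5g3, Ndufs1, Ndufa10, Ndufv1, Uqcrq, Atp5c1, Uqcrc2, Sdhc, Atp5b and Uqcrfs1. In every one of the 21, the 3 P2+ libraries lay below the 3 P2- libraries. The 21 were called on these same libraries, so this is no further evidence.

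Among the 7 nuclear core subunits of complex I, those that carry the redox centres and are shared with bacteria, 4 were lower in P2+ (57.1%, against 17% of all genes). Ndufs1, the largest of them, read 58.6, 52.3 and 54.8 CPM in P2- and 37.8, 43.6 and 37.5 in P2+ (log2 fold change -0.46, SE 0.10, adjusted p = 0.00733), with 45.5, 48.6 and 50.8 in WT and 49.2, 51.1 and 49.3 in KO. Ndufv1, which binds NADH and FMN, read 66.1, 67.5 and 73.5 CPM in P2- and 54.4, 54.8 and 46.1 in P2+ (log2 fold change -0.40, SE 0.10, adjusted p = 0.012). Both had WT and KO values between those of P2- and P2+. Ndufs1 shares exonic bases with Eef1b2 and Ino80dos on the opposite strand, and the part of their reads in its counts was not tested. Ndufv2, its iron-sulfur partner, fell by 0.53 on the log2 scale, from 14.8 ± 0.974 to 10.1 ± 1.33 CPM (SD, n = 3; adjusted p = 0.0313). Ndufs7, which holds the last iron-sulfur cluster before ubiquinone, fell by 0.54, from 16.2 ± 1.80 to 11.0 ± 0.678 CPM (adjusted p = 0.0228). The core subunits Ndufs3 and Ndufs8 had log2 fold changes of -0.19 and -0.00694 and were not called.

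The accessory subunits of complex I, which surround the core, were mostly not called. Of 27 tested, 4 were lower in P2+ and 1 was higher, shares below the 17% and 20.1% of all genes. Ndufa1, needed for building the membrane arm, read 21.2, 27.6 and 25.5 CPM in P2- and 16.3, 18.2 and 12.8 in P2+ (log2 fold change -0.64, SE 0.17, adjusted p = 0.0179). Ndufa2 went from 6.65 ± 0.961 CPM in P2- to 3.70 ± 0.987 in P2+ (log2 fold change -0.83, SE 0.27, adjusted p = 0.0388), on 34 to 110 counts a library. Ndufs6 went from 5.28 ± 1.03 to 3.01 ± 0.508 CPM (log2 fold change -0.80, SE 0.27, adjusted p = 0.0487), on 32 to 87 counts. These are the low-count end of the list. Ndufa2 and Ndufs6 also share exonic bases with Tmco6 and Mrpl36 on the opposite strand. Ndufs6 has most of its counts on the copy Ndufs6b, and gene and copy together gave a log2 fold change of -0.38 (adjusted p = 0.0201). Ndufs4, an accessory subunit that joins the peripheral arm late in assembly, was the only nuclear member higher in P2+. Its libraries read 14.8, 14.7 and 12.3 CPM in P2+, 9.23, 10.8 and 8.96 in P2-, 9.01, 9.63 and 11.7 in WT and 8.73, 12.6 and 9.37 in KO (log2 fold change 0.54, SE 0.17, adjusted p = 0.0307 for P2+ against P2-). The P2+ values lay above those of P2-, and 2 of the 3 were above every other library.

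In complex II, 2 of the 4 subunits were lower, both membrane anchors (against 17% of all genes), and with the replicate block all 4 (against 24.8%). Sdhd (chr9:50596357-50603812, minus strand in GRCm38) read 256, 209.6 and 205 CPM in P2-, 148, 132 and 144 in P2+, 175, 173 and 188 in WT and 201, 189 and 189.6 in KO (log2 fold change -0.65, SE 0.10, adjusted p = 0.00112 for P2+ against P2-). Here the P2- libraries were the highest, P2+ the lowest, and WT lay between them without overlap. Sdhc read 143, 128 and 140.3 CPM in P2- and 107, 106 and 105 in P2+ (log2 fold change -0.36, SE 0.07, adjusted p = 0.0041). Sdha and Sdhb, the catalytic pair, had log2 fold changes of -0.19 (adjusted p = 0.0863) and -0.58 (adjusted p = 0.0524) and non-overlapping groups, but did not pass the threshold.

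In complex III, 5 of 8 members were lower in P2+ (62.5%, against 17% of all genes), 6 with the replicate block (against 24.8%) and 2 without the libraries numbered 2 (against 16.8%). Uqcrh, the hinge protein that helps cytochrome c to bind, read 30.2, 33.5 and 24.9 CPM in P2-, 19.4, 19.6 and 21.4 in P2+, 26.3, 23.8 and 31.0 in WT and 22.0, 21.0 and 30.0 in KO (log2 fold change -0.54, SE 0.14, adjusted p = 0.0154). The KO libraries overlapped both reporter fractions. Uqcrfs1 read 143, 139 and 133 CPM in P2- and 112, 119 and 110.3 in P2+ (log2 fold change -0.27, SE 0.07, adjusted p = 0.0152). Uqcr10, a small subunit, went from 11.8 ± 1.59 to 7.85 ± 1.40 CPM (log2 fold change -0.58, adjusted p = 0.0493). Uqcrq and the core protein gene Uqcrc2, which shares exonic bases with Pdzd9 on the opposite strand, were also lower, with log2 fold changes of -0.40 and -0.38.

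In complex IV Cox6b2 and Cox7b were lower in P2+, of 13 tested (15.4%, against 17% of all genes). With the replicate block Cox4i1, Cox6a1 and Cox7a2l were lower as well, or 38.5% against 24.8% of all genes in that fit. Without the libraries numbered 2 there was 1 of 13 lower, or 7.69% against 16.8%. Cox6b2 (chr7:4751792-4753094, minus strand in GRCm38) read 25.9, 19.4 and 25.4 CPM in P2-, 6.12, 5.52 and 5.95 in P2+, 21.2, 19.8 and 14.1 in WT and 31.5, 26.5 and 28.5 in KO (log2 fold change -2.00, SE 0.17, adjusted p = 4.27e-05 for P2+ against P2-). The P2+ libraries reached at most 6.12 CPM and every other library at least 14.1, and each KO library lay above those of all other groups. Its paralogue Cox6b1, the general form, read 7.08, 6.92 and 4.73 CPM in P2- and 5.53, 4.07 and 3.66 in P2+ (log2 fold change -0.48, adjusted p = 0.194), and its groups overlapped. Cox7b went from 10.8 ± 2.16 to 6.61 ± 0.750 CPM (log2 fold change -0.69, SE 0.21, adjusted p = 0.0297). The other general forms were not called without the block. Cox4i1, which begins the assembly of the nuclear subunits around the core, had a log2 fold change of -0.32 (adjusted p = 0.0653). Cox6a1 stood at -0.27, Cox7a2 at -0.60, Cox7a2l, a factor that joins complexes III and IV, at -0.20, Ndufa4 at 0.11 and Cox8a at 0.00260. Cox8a read 66.9, 66.6 and 76.2 CPM in P2- and 69.9, 70.0 and 68.4 in P2+, and its fold change turned negative under 3 alternatives, to -0.0252 without the libraries numbered 2.

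Of the 14 complex V members tested, 4 were lower in P2+ (28.6%, against 17% of all genes) and all 14 fold changes were below 0, as were 51.7% of those of all genes. With the replicate block 8 were lower, or 57.1% against 24.8% of all genes, and without the libraries numbered 2 there were 2 of 13, or 15.4% against 16.8%. Atp5b, the catalytic beta subunit (chr10:128083273-128090391, plus strand in GRCm38), read 662, 647 and 638 CPM in P2-, 507, 517 and 509.8 in P2+, 525, 529.7 and 591 in WT and 581, 594 and 600.1 in KO (log2 fold change -0.33, SE 0.06, adjusted p = 0.00392). It was the nuclear member with the highest count, and the 3 libraries of each reporter fraction lay within a narrow range. Atp5c1, the central shaft, read 86.3, 83.9 and 84.8 CPM in P2- and 65.2, 65.7 and 62.8 in P2+ (log2 fold change -0.38, SE 0.07, adjusted p = 0.00303). Atp5a1, the alpha subunit, had a log2 fold change of -0.16 (adjusted p = 0.0958). Atp5h, subunit d of the peripheral stalk, read 11.1, 11.8 and 13.1 CPM in P2- and 7.96, 6.90 and 7.78 in P2+ (log2 fold change -0.66, SE 0.17, adjusted p = 0.0137). The call on Atp5h was lost when the counts of its copy Gm10250 were added (log2 fold change -0.20, adjusted p = 0.0862). Of the c subunit genes, Atp5g3 was lower (log2 fold change -0.47, SE 0.15, adjusted p = 0.0334). Atp5g1 and Atp5g2 stood at -0.44 and -0.81 and were not called.

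Of the members with retrocopies, the copies themselves could be tested in P2+ against P2- for 19 copies, of which 0 were higher, also at an unadjusted p under 0.05 and with DESeq2 or exactTest, and 5 were lower (26.3%, against 17% of all genes), with 17 of 19 fold changes below 0 (against 51.7% of all genes) and a median of -0.22. When copies were added to their genes, 26 of 76 nuclear members were lower and 1 was higher, in place of 21 of 75 and 1, beside 17% lower and 20.1% higher among all genes without the copies added. Atp5g1 with Gm10039 then fell by 0.79 (adjusted p = 0.000103) and Uqcr11, a small complex III subunit, with Gm16418 by 0.55 (adjusted p = 0.00753). Ndufa12, Cox7c, Cox5b and Atp5l also passed together with their copies (adjusted p = 0.0135, 0.0384, 0.0277 and 0.0401), all lower in P2+.

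**Figure D4:**
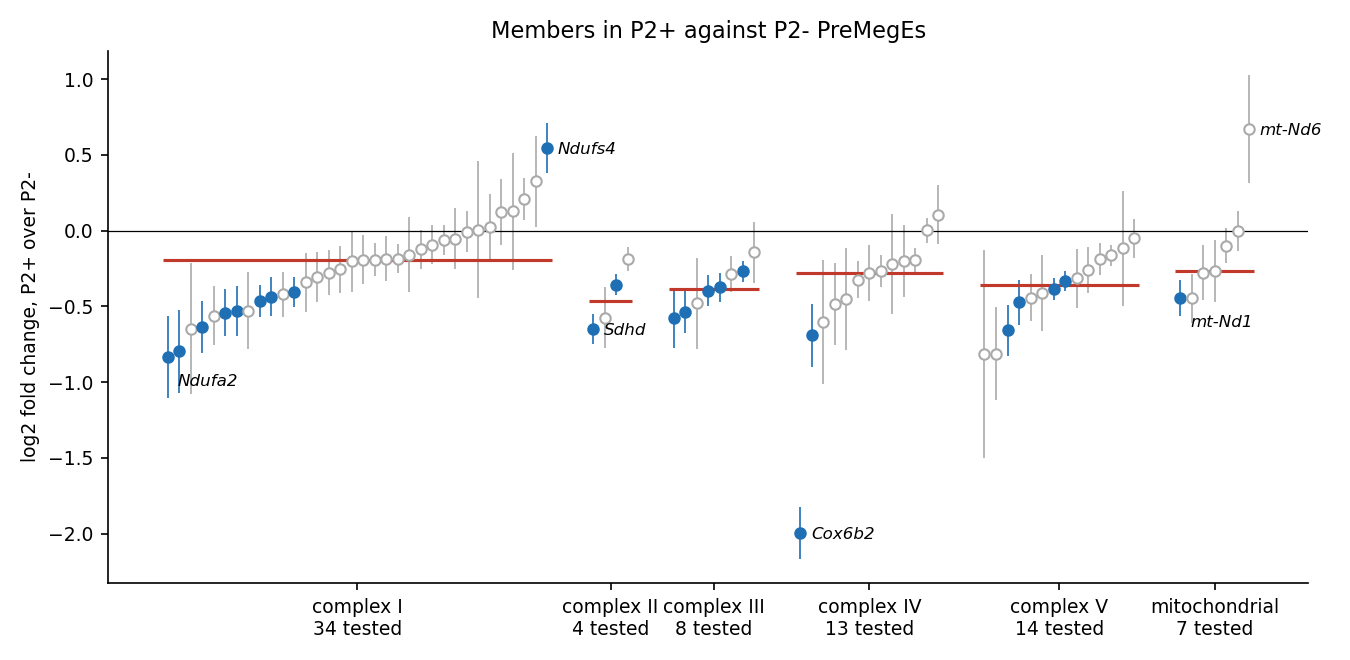
Log2 fold change of P2+ over P2- with its standard error for each subunit tested, by complex for nuclear genes and together for mitochondrial genes, filled where the adjusted p was under 0.05, with the median of each set as a red line. The medians lie between -0.20 for complex I and -0.47 for complex II, and Cox6b2 at -2.00 stands apart.

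How many of these calls hold depends on single libraries. Leaving out each library in turn gave 11 to 18 nuclear members lower, with 11 without P2- replicate 3 and 13 without P2+ replicate 3. Cox6b2, Sdhd, Sdhc, Ndufs1, Atp5c1 and Atp5b were called in all 6 of these fits, Atp5b losing its call only with edgeR's exactTest. The other 15 lower members and Ndufs4 lost the call in at least 1, with adjusted p up to 0.157. Atp5h, Uqcrq, Uqcrc2 and Ndufv1 were called in 5 of the 6 fits, Ndufa1 and Uqcrh in 4, Ndufs7 and Uqcrfs1 in 3, Ndufs6, Cox7b and Ndufa10 in 2, and Ndufa2, Uqcr10, Atp5g3 and Ndufv2 in 1. Of the 21 calls, 8, 5 and 10 were lost without P2+ replicate 1, 2 or 3, and 7, 5 and 11 without P2- replicate 1, 2 or 3. Ndufs4 was not called without P2+ replicate 1 or 2 or without P2- replicate 1 or 3 (adjusted p up to 0.0978). Without the pair of libraries numbered 2, in which immediate early genes were high, 15 of 74 nuclear members were lower and 0 higher. That is 20.3% lower, close to the 16.8% lower among all genes in that fit, of which 20.2% were higher. Of the 21 members lower with all libraries, 8 lost the call there: Atp5h (adjusted p = 0.0627), Uqcrh (0.0669), Uqcrq (0.0678), Ndufs6 (0.0754), Uqcr10 (0.0817), Ndufv2 (0.0892), Atp5g3 (0.111) and Cox7b (0.15). Ndufb9 and Ndufa6 were called lower there as well, and Ndufs4 had an adjusted p of 0.0514. The replicate number as a block took up variation shared by P2+ and P2- libraries of the same number. With it, 33 of the 75 nuclear members were lower and 1 higher, against 24.8% lower and 25.9% higher among all genes in that fit. The members added by the block were Sdhb (adjusted p = 0.0322), Sdha (0.015), Uqcrc1 (0.0312), Cox4i1 (0.0276), Cox6a1 (0.0189), Cox7a2l (0.0221), Atp5g1 (0.0318), Atp5g2 (0.0414), Atp5a1 (0.0135), Atp5j (0.0233), Ndufa6 (0.0086) and Ndufb9 (0.0124).

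Of the 7 mitochondrial members with counts, 1 was called without the replicate block and 5 with it, a fit that called 25.9% of all genes higher and 24.8% lower. Their sum was 19899, 22949.8 and 28493 CPM in P2-, 17412, 21543 and 22908 in P2+, 19283, 22057 and 22854 in WT and 18269.8, 21932 and 20193 in KO. The groups overlapped, the P2+ library was the lower in each same-numbered pair of P2+ and P2-, and the spread within P2- alone was wider than the distance between group means. The ratio of the mitochondrial to the nuclear sum ran from 5.37 to 8.09 over the 12 libraries, with both extremes in P2-. In P2+ against P2- without the block the 1 was lower (14.3%, against 17% of all genes) and 0 were higher (against 20.1%), which was also 0 at an unadjusted p under 0.05 and with DESeq2 or exactTest, and the median log2 fold change was -0.27. The one called was mt-Nd1, a membrane-arm core subunit of complex I, which read 3039, 3226 and 4071 CPM in P2-, 2209, 2526 and 2783 in P2+, 2747, 3028 and 3141 in WT and 2517, 2849.7 and 2713 in KO (log2 fold change -0.45, SE 0.12, adjusted p = 0.016). The reporter fractions were separate in it, and the call was lost without P2+ replicate 1 (adjusted p = 0.0687), while mt-Nd2 was called as well without P2- replicate 1 (adjusted p = 0.0157). The other 6 had overlapping groups. mt-Co1 stood at -0.10, mt-Nd5 at -0.00511, mt-Cytb at -0.28, mt-Nd4 at -0.27, mt-Nd2 at -0.45 (adjusted p = 0.0576) and mt-Nd6 at 0.67. With the replicate block, mt-Nd1, mt-Nd2, mt-Nd4 and mt-Cytb were lower (log2 fold changes -0.44, -0.43, -0.25 and -0.27, adjusted p from 1.72e-06 to 0.00124) and mt-Nd6 was higher (0.65, adjusted p = 0.00365), while mt-Co1 and mt-Nd5 were still not called. In P2-, P2+ and WT the library numbered 1 was the lowest of its group in the mitochondrial sum, and the one numbered 3 the highest. In KO the library numbered 1 was also the lowest, but the one numbered 2 was the highest.

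Against WT, Cox6b2 and Sdhd were the nuclear members called in P2+. Of 75 nuclear members 0 were higher and 2 lower, against 9.45% and 7.07% of 12941 genes, and the median log2 fold change was -0.14. At an unadjusted p under 0.05 there were 1 higher and 18 lower, or 25.3% against 30.7% of all genes, and DESeq2 called 0 and 5, against 8.56% of all genes lower. The 2 lower were Cox6b2 (log2 fold change -1.64, SE 0.20, adjusted p = 0.000398) and Sdhd (log2 fold change -0.33, SE 0.08, adjusted p = 0.0159), whose values are given above and whose P2+ libraries lay below the WT libraries. Sdhd lost the call without WT replicate 3 (adjusted p = 0.0578). Leaving out P2+ replicate 2 gave 5 nuclear members lower, and WT replicate 3 gave 1. Of the 7 mitochondrial members, mt-Nd6 was higher, at 10.6, 25.3 and 21.2 CPM in P2+ against 8.11, 8.95 and 10.1 in WT (log2 fold change 1.08, SE 0.28, adjusted p = 0.0241). Its KO libraries read 9.60, 10.9 and 16.6 and its P2- libraries 7.24, 12.8 and 16.2 CPM. The gene had 91 to 367 counts a library, the lowest P2+ value was close to the highest WT value, and the call was lost in 4 of 6 fits with 1 library left out, up to an adjusted p of 0.0942 without WT replicate 1. Without P2+ replicate 3, mt-Nd1 and mt-Cytb were lower (adjusted p = 0.0188 and 0.0259). mt-Nd5, which overlaps mt-Nd6 on the other strand and was at 1467 RPKM against 25.3, was not called (log2 fold change 0.02), and the part of its reads in the mt-Nd6 counts was not tested.

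The nuclear members called in P2- against WT were higher in P2-, in a share near that of all genes called higher. Of 76 nuclear members 5 were higher (6.58%) and 0 lower, against 6.85% higher and 9.6% lower among 12767 genes, with a median log2 fold change of 0.10. At an unadjusted p under 0.05 there were 10 higher and 1 lower, or 14.5% against 30.5% of all genes. DESeq2 called 6 higher and 0 lower, and exactTest 1 and 0, with Atp5c1 (adjusted p = 0.0703), Sdhd (0.0914), Uqcrfs1 (0.101) and Atp5b (0.305) not called. The 5 were Uqcrq (log2 fold change 0.45, SE 0.13, adjusted p = 0.0342), Sdhd (log2 fold change 0.33, SE 0.10, adjusted p = 0.0425), Uqcrfs1 (log2 fold change 0.28, SE 0.08, adjusted p = 0.0483), Atp5c1 (log2 fold change 0.28, SE 0.08, adjusted p = 0.0337) and Atp5b (log2 fold change 0.24, SE 0.07, adjusted p = 0.0451). Uqcrq, a small subunit of complex III, read 48.5, 54.1 and 45.8 CPM in P2- and 31.8, 33.8 and 42.8 in WT. All 5 had P2- libraries above the WT libraries, which is no further evidence, since they were called on these same libraries. All 5 also appear in the list of P2+ against P2- above, a comparison that uses the same P2- libraries. None of the 5 held in every fit with 1 library left out, and the count was 0 without P2- replicate 1, WT replicate 1 or WT replicate 2, 2 without P2- replicate 3 and 3 without WT replicate 3. No mitochondrial member was called (0 of 7 higher and 0 lower, also at an unadjusted p under 0.05 and with DESeq2 or exactTest, with a median of 0.18). Between P2- and P2+, WT was thus intermediate in the median difference from the WT mean, which was 0.11 ± 0.02 (SD, n = 3) in P2-, -0.0093 ± 0.08 in WT itself and -0.17 ± 0.05 in P2+, on the log2 scale with a pseudocount of 0.5 CPM.

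KO against WT gave 1 nuclear member higher and 0 lower of 76, against 6.18% and 8.76% of 12784 genes, with a median log2 fold change of 0.07. At an unadjusted p under 0.05 there were 5 higher and 1 lower, or 7.89% against 27.1% of all genes, and DESeq2 and exactTest both gave 1 and 0. The one was Cox6b2 (log2 fold change 0.64, SE 0.14, adjusted p = 0.00518), the same gene that was furthest down in P2+, and the call held without each library in turn. Leaving out WT replicate 1 or 3 gave 2 and 3 nuclear members higher. Of the mitochondrial members 0 of 7 were called, with a median of -0.15, and at an unadjusted p under 0.05 there were 1 higher and 4 lower (5 of 7 against the same 27.1%, with 2 lower in DESeq2 and 1 in exactTest). mt-Cytb, mt-Nd5 and mt-Nd4 stood at -0.25, -0.23 and -0.23 (adjusted p = 0.0509, 0.0793 and 0.0981), and all 3 were called lower without KO replicate 2 or without WT replicate 1. Whether the KO libraries were made and sequenced together with the WT libraries is not given in the sources used here. Erythroid markers were higher in 10 of 15 tested in KO and in 11 of 15 in P2-, each against WT, and lower in 10 of 15 in P2+. Of the megakaryocyte markers, 8 of 14 were lower and 2 higher in KO, and 11 of 13 lower in P2-. In P2+ 8 of 14 were higher and 1 lower. Stem cell markers were lower in 5 of 9 in KO and 5 of 8 in P2-, and higher in 6 of 10 in P2+. Those of neutrophils and monocytes were lower in 7 of 11 in KO and 7 of 12 in P2-, and higher in 4 of 11 in P2+. The part of these markers in the results was not tested. The 3 comparisons with WT share its libraries. With the retrocopies added, 4 more results passed against WT. Atp5g1 with Gm10039 was lower in P2+ (-0.38, adjusted p = 0.0216) and higher in P2- (0.42, adjusted p = 0.0197). Ndufs6 with Ndufs6b was higher in P2- (0.41, adjusted p = 0.0251) and in KO (0.32, adjusted p = 0.0483).

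**Figure D5:**
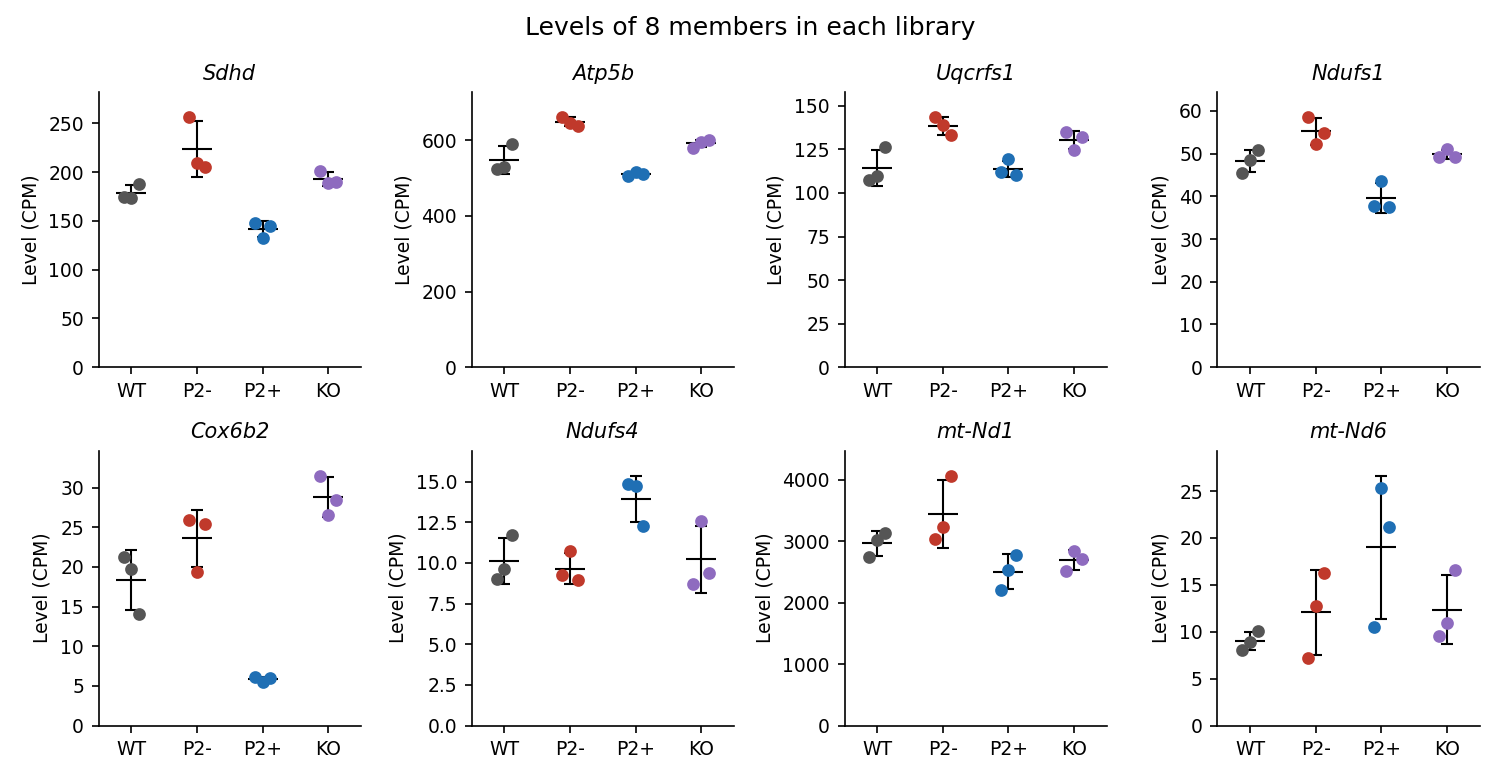
CPM of 8 members in each of the 12 libraries (points), with the mean and SD of each group of 3. Sdhd, Atp5b, Ndufs1 and Cox6b2 are lowest in P2+, Ndufs4 and mt-Nd6 have their highest means there, and mt-Nd1 separates P2+ from P2-.

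The wider pathway was described with gene lists drawn up for this purpose. At an unadjusted p under 0.05, and with DESeq2 or exactTest, each count of 0 higher given for these lists was also 0, except that 1 component outside the rule was higher at an unadjusted p under 0.05. Among 8 tested components of the chain that the naming rule missed, 3 were lower in P2+ than in P2- and 0 higher, 37.5% lower against 17% of all genes. Atpif1, the inhibitor of the ATP synthase, read 125, 124 and 150.4 CPM in P2-, 67.5, 66.8 and 69.7 in P2+, 119, 112 and 104 in WT and 122, 116 and 125 in KO (log2 fold change -0.95, SE 0.09, adjusted p = 7.51e-05). Its P2+ libraries lay far below all others. Cyc1, the cytochrome c1 of complex III, was lower too (log2 fold change -0.51, SE 0.08, adjusted p = 0.0011), as was Etfdh, which feeds electrons from fatty acid oxidation into ubiquinone (log2 fold change -0.45, SE 0.13, adjusted p = 0.0273). Of 47 assembly factors 7 were lower and 0 higher, and the 14.9% lower was near the 17% of all genes. The largest of these fold changes were those of Ndufaf1 (log2 fold change -0.76, SE 0.16, adjusted p = 0.00644), Ndufaf4 (log2 fold change -0.59) and Ndufaf7 (-0.58), all for complex I.

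Genes for the expression and upkeep of mitochondrial DNA were lower in P2+ in 15 of 29 cases (51.7%, against 17% of all genes) and higher in 1. Top1mt, the mitochondrial topoisomerase, had the largest fold change (log2 fold change -1.18, SE 0.32, adjusted p = 0.0188), at 7.22 CPM in P2- and 3.16 in P2+. Lrpprc, which stabilises mitochondrial mRNA, read 38.4, 36.5 and 32.3 CPM in P2- and 21.9, 19.1 and 19.7 in P2+ (log2 fold change -0.81, SE 0.12, adjusted p = 0.000891). Fastkd5, which helps to process mitochondrial RNA, was also lower (log2 fold change -0.64), and Mgme1, a nuclease of mitochondrial DNA, was higher (0.34). Of 17 genes of the citric acid cycle and pyruvate dehydrogenase, 9 were lower (52.9%) and 0 higher, among them Dlst (log2 fold change -0.46, SE 0.07, adjusted p = 0.00102), Dlat (-0.45) and Cs, citrate synthase (-0.44).

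Of 11 tested regulators of mitochondrial gene expression, 2 were higher in P2+ (18.2%, against 20.1% of all genes) and 1 lower (9.09%, against 17%), so the counts do not set the list apart from other genes. Gabpb1, the beta subunit of the ETS factor GABP that binds many of these promoters, read 149, 135 and 135 CPM in P2+, 78.0, 75.4 and 78.9 in P2-, 110.2, 113 and 107 in WT and 85.4, 85.9 and 91.3 in KO (log2 fold change 0.86, SE 0.07, adjusted p = 3.87e-05 for P2+ against P2-). P2+ was highest and P2- lowest, the reverse of the order of the nuclear sums. Hif1a, the oxygen-regulated factor, was higher (log2 fold change 0.45, SE 0.08, adjusted p = 0.00176), and Pprc1, a coactivator of the PGC-1 family, was lower (log2 fold change -0.69, SE 0.08, adjusted p = 0.000187). None of the lists is an independent test, since they were chosen with earlier results of these data known.

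Promoters were read from 250 bases before to 50 bases after the RefSeq transcription start (GRCm38.p6), which matched 69 of the 84 nuclear members, 3 of them by an older symbol. Each was searched on both strands for 3 short motifs, none of which contains another. The NRF1 core, CGCATGCG, which reads the same on both strands, was in 9 of 69 members, in 2.07% of 27025 promoters and in 4.65% of the 8791 promoters of genes tested in P2+ against P2-. The YY1 core, AAGATGGC, was in 11 of 69 (15.9%), in 3.19% of all promoters and in 5.6% of those of tested genes. The ETS core that GABP binds, CCGGAAGT, was in 5 of 69 (7.25%), in 4.31% of all promoters and in 9.68% of those of tested genes, so it lies above the one share and below the other, and neither difference was tested. Among the 16 matched members that were lower in P2+ than in P2-, 0 held the NRF1 core, 2 the ETS core and 2 the YY1 core. Among the 47 that were tested and not called, 8, 3 and 8 held them. The 250 bases before the start are printed for Cox6b2 and Sdhd, the lower members with the smallest adjusted p, which hold none of the 3 motifs in the whole window, and for Uqcrh, which holds the ETS core as ACTTCCGG at -11, in capitals. All 3 are on the minus strand, at chr7:4753095-4753344, chr9:50603850-50604099 and chr4:116075071-116075320.
Cox6b2: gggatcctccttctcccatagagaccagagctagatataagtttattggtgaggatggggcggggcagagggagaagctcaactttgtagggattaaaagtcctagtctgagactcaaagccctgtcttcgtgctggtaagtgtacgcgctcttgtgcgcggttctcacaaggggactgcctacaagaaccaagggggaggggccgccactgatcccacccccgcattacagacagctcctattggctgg
Sdhd: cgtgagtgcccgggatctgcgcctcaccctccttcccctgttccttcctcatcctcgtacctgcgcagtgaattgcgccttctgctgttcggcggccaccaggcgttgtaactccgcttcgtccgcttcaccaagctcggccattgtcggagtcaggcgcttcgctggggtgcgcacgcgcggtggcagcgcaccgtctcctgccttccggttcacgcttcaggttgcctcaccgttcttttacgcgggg
Uqcrh: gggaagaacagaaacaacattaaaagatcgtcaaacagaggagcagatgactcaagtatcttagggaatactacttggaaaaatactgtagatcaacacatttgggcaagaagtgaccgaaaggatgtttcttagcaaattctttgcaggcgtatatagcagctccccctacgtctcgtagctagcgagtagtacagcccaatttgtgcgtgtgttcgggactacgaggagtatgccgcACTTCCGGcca
A match describes letters in a window and not a bound site.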

How the data were processed

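RNA from sorted cells was sequenced as strand-specific poly(A) libraries (paired reads of 75 bases). Per the study's methods and the labels, the authors used Bowtie2 for alignment to GRCm38 and featureCounts with Ensembl annotation, and deposited raw read counts for each gene and library. Bowtie2 was run with default settings, and the strand use of featureCounts and its handling of reads with several alignments are not given in the sources used here. A gene entered a comparison when 3 or more of its 6 libraries reached 1 CPM, and the test was edgeR's quasi-likelihood test, version 4.0.16 (TMM, group only, Benjamini-Hochberg adjustment, adjusted p under 0.05). DESeq2 1.42.0, edgeR's exactTest and the other alternatives are given at the end. The procedure was tested on simulated data with the same dispersion for every gene and no variation shared by same-numbered libraries, so it was not tested under such shared variation. Printed CPM used total counts scaled by TMM factors over all 12 libraries, and RPKM used these CPM and the exonic length in GENCODE. The filter and the limit for a count of 0 used unscaled totals. Shared sequence was counted in windows of 75 bases against annotated transcripts and not the whole genome. Copies that shared at least 1% of a member's windows were kept. P2+ and P2- libraries of the same number deviated together (correlations of 0.386, 0.572 and 0.405 across genes), so both fits are given. Named were up to 10 called members in each direction for P2+ against P2- and up to 5 elsewhere, all mitochondrial members, isoform families, the most abundant members and up to 3 genes in each direction of each list; other members were named after their values were seen. Members and lists were chosen with earlier results of these data known. Libraries of one group differed by more than counting noise.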

Additional observations from a re-analysis of the deposited data

How the results depend on the processing

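The direction of Cox6b2 in P2+ and in KO, and of Sdhd in P2+, did not change under any alternative run. In P2+ against P2-, the nuclear count of 21 lower became 33 with the replicate block and 1 with a 2-fold minimum, and the 1 higher became 0 without a filter on low counts, without both libraries numbered 2 and with the 2-fold minimum. The mitochondrial count of 1 lower became 2 without a filter, with DESeq2, in a fit of all 12 libraries and without both libraries numbered 2, 4 with the replicate block, and 0 with exactTest and the 2-fold minimum, and the block gave 1 higher. Cox8a turned from 0.0026 to -0.0170 without a filter, -0.0107 in the fit of all 12 libraries and -0.0252 without both libraries numbered 2. In P2+ against WT the 2 lower nuclear members became 4 without a filter, 5 with DESeq2, 6 in the fit of all 12 libraries and 1 with the 2-fold minimum, and the 0 lower mitochondrial members became 1 without a filter, 1 with DESeq2 and 3 with the block. In P2- against WT the 5 higher nuclear members became 1 with exactTest, 0 with the block and 0 with the 2-fold minimum, and the block gave 1 mitochondrial member higher. In KO against WT the 1 higher nuclear member became 2 with the retrocopies added, an alternative chosen after seeing the data, and 0 with the 2-fold minimum, and the 0 lower mitochondrial members became 3 without a filter, 1 with exactTest, 2 with DESeq2 and 4 with the block. The causes of these shifts were not tested. Same-numbered libraries did not deviate together between WT and the other groups (correlations of -0.0853 to 0.159), so there the block is a hint from the data only.

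Leaving out 1 library at a time gave, in P2+ against P2-, 11 to 18 nuclear members lower and 0 to 1 higher, 0 to 2 mitochondrial members lower and a nuclear median of -0.3473 to -0.2823. In P2+ against WT it gave 1 to 5 nuclear members lower, 0 to 1 mitochondrial members higher and 0 to 2 lower. In P2- against WT it gave 0 to 4 nuclear and 0 to 1 mitochondrial members higher, and in KO against WT 1 to 3 nuclear members higher and 0 to 3 mitochondrial members lower. Log2 fold changes that changed sign, none of them called, ranged in P2+ against P2- from -0.0321 to 0.0652 for Cox8a, -0.2023 to 0.0164 for mt-Co1 and -0.1198 to 0.1213 for mt-Nd5. In P2+ against WT they ranged from -0.1987 to 0.0081 for Atp5g1, -0.1268 to 0.081 for Cox8a, -0.0122 to 0.2368 for Ndufa4, -0.0126 to 0.1776 for mt-Co1 and -0.0617 to 0.1301 for mt-Nd5. In P2- against WT they ranged from -0.0213 to 0.1802 for Cox6a1, -0.181 to 0.173 for Cox6b1, -0.022 to 0.0797 for Cox7a2l, -0.1224 to 0.0886 for Cox8a, -0.1107 to 0.1386 for Ndufa4, -0.106 to 0.2515 for mt-Cytb, -0.1613 to 0.2515 for mt-Nd4 and -0.0972 to 0.1434 for mt-Nd5. In KO against WT they ranged from -0.0504 to 0.1388 for Cox4i1, -0.2783 to 0.106 for Cox6b1, -0.1813 to 0.2065 for Cox7a2, -0.0785 to 0.0191 for Cox7a2l, -0.2203 to 0.0172 for Cox7b, -0.1864 to 0.016 for Cox8a and -0.0538 to 0.0973 for mt-Co1.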
